A study of Homo sapiens with 8 samples.

Results

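The genes described here are 10 targets of the hypoxia-inducible factors (HIF) that act outside glycolysis, namely CA9, BNIP3, BNIP3L, ADM, NDRG1, ANKRD37, P4HA1, P4HA2, KDM3A and DDIT4. They were taken by gene symbol from the 60658 genes of the deposited table, and all 10 were among the 14334 genes tested. Expression was measured by RNA sequencing in human iPSC-derived cardiomyocytes (hiPS-CMs) from a single iPSC line (253G1 in the paper, spelled 235G1 in the sample labels). The H/R+BA group (n = 4 libraries) had 12 h of hypoxia at 1% O2 in DMEM with 0.3 g/L glucose and no serum, followed by 12 h of reoxygenation in medium conditioned by brown adipocyte (BA) sheets. The H/R group (n = 4 libraries) had the same hypoxia, followed by 12 h of reoxygenation in regular medium, which was DMEM with serum. BA sheets are layers of rat brown adipocytes carried on polymer fibers. The comparison asks how the conditioned medium altered the transcriptome of cardiomyocytes after H/R. What the sheets released into their medium and what they removed from it or carried over into it cannot be told apart in this design. No library of cells kept in normoxia or taken at the end of hypoxia was analysed here, so these data do not show whether any of the 10 genes had been induced by the hypoxia.

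HIF is a transcription factor made of an oxygen-regulated α subunit and the stable partner ARNT. In oxygenated cells, prolyl hydroxylases mark the α subunit for capture by VHL and for degradation, whereas in hypoxia it accumulates and binds hypoxia response elements near its target genes. Besides glycolysis, the targets serve removal of mitochondria, pH control, vascular tone, collagen maturation, histone demethylation and restraint of growth, and many of these processes bear on the ischemic heart. Most of these genes also answer to other signals, DDIT4 for example to glucocorticoids and to the stress factor ATF4.

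Depth was 48100296 to 53308952 reads per H/R+BA library and 39854257 to 48898147 reads per H/R library, of which 95.4% to 96.3% were mapped. Values are the authors' normalized FPKM (fragments per kilobase of transcript, scaled for depth), differences are log2 fold changes of FPKM + 1 (H/R+BA over H/R), and a gene was called when its adjusted p (limma, two-sided, Benjamini-Hochberg over all genes tested) was under 0.05. The labels give the libraries of a group no separate culture or day, so the p-values measure the spread between these libraries, which may be technical. Cardiomyocyte markers summed to 15609 to 19322 FPKM in H/R+BA libraries and 13882 to 21571 FPKM in H/R libraries, with 1 of 12 called, whereas none of 6 adipocyte markers exceeded 0.372 FPKM in any library. Of the markers of other cells, 3 of 3 tested pluripotency genes rose. The 5 pluripotency markers summed to 11 to 13.3 FPKM in H/R+BA and 3.97 to 4.85 FPKM in H/R. Also higher were 2 of 2 tested leukocyte, 4 of 6 endothelial and 2 of 7 fibroblast genes, while 1 of 5 smooth muscle genes fell. None of 5 endoderm or hepatic genes was called. Among all tested genes, 13.7% were called higher and 11.1% lower. The defining genes NANOG, SOX2, PTPRC and CD3E were too low to be tested.

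The promoters are shown first because the core of a hypoxia response element can be read in most of them. A window of 300 bases, 250 before and 50 after the annotated start, was found in the RefSeq promoter table (GRCh38.p14) for 8 of the 10 genes, all but BNIP3L and NDRG1. The cores ACGTG and GCGTG were searched on both strands. ACGTG was present in 21.4% of the 35116 windows of the table, GCGTG in 36.5% and either of them in 48.4%. Among the 8 matched genes, 5 had ACGTG, 4 had GCGTG and 7 had at least 1 of them. The stretches below hold cores of the 4 genes that were higher in every H/R+BA library (DDIT4, BNIP3, P4HA1 and ADM) and of CA9 and ANKRD37, and capitals mark ACGTG or GCGTG, or their reverse complements CACGT and CACGC. Each is written 5′ to 3′ on the strand of its gene. The stretches of P4HA1 and CA9 touch an exon of the GENCODE 44 annotation, and the others do not. Those of P4HA1 and ANKRD37 lie within the bounds of their genes there.
DDIT4, chr10:72273772-72273831, plus strand: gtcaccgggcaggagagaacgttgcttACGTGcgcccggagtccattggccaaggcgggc
BNIP3, chr10:131982015-131982074, minus strand: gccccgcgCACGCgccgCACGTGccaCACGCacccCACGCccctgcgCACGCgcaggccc
P4HA1, chr10:73096935-73096964, minus strand: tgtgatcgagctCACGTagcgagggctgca
ADM, chr11:10304945-10305004, plus strand: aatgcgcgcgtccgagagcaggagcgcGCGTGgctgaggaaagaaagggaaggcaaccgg
CA9, chr9:35673898-35673927, plus strand: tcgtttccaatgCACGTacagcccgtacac
ANKRD37, chr4:185396661-185396720, plus strand: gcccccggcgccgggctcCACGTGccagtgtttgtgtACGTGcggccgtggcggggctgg

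The DDIT4 window held 3 further cores outside the stretch shown, GCGTG at positions −219, −53 and 26 from the annotated start. BNIP3 had 5 cores within this stretch, 1 of them ACGTG in the palindrome CACGTG and 4 of them GCGTG. Counted in the same way, the ANKRD37 cores began at positions −162 and −143, and the CA9 core lay at position −18. The KDM3A windows held GCGTG alone, and the P4HA2 window held neither core. A match describes the letters in the window, and binding of HIF was not measured.

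Of the 10 HIF target genes, 5 rose in the H/R+BA group (DDIT4, NDRG1, ADM, P4HA1 and BNIP3), none fell, and 5 were not called (CA9, ANKRD37, P4HA2, KDM3A and BNIP3L). Over all tested genes, 13.7% were called higher, 11.1% lower and 24.7% in either direction. The median log2 fold change of the 10 genes was 0.33, beside 0.01 for all tested genes, and 8 of the 10 values were above 0. In 4 of the genes (DDIT4, P4HA1, BNIP3 and ADM) every H/R+BA library was above every H/R library. Such a separation with H/R+BA higher was found in 15.3% of all tested genes, one with H/R+BA lower in 13.3%, and one in either direction in 28.6%. The calls of DDIT4, P4HA1 and BNIP3 held under all 16 alternative settings, that of NDRG1 under 11 and that of ADM under 7. NDRG1 and ADM both lost the call when H/R+BA replicate 2, 3 or 4 or H/R replicate 1 was left out, which left 3 genes called higher, and ADM lost it without H/R+BA replicate 1 as well. In such bulk libraries, fewer cells of a type and less RNA per cell cannot be told apart.

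**Figure D1:**
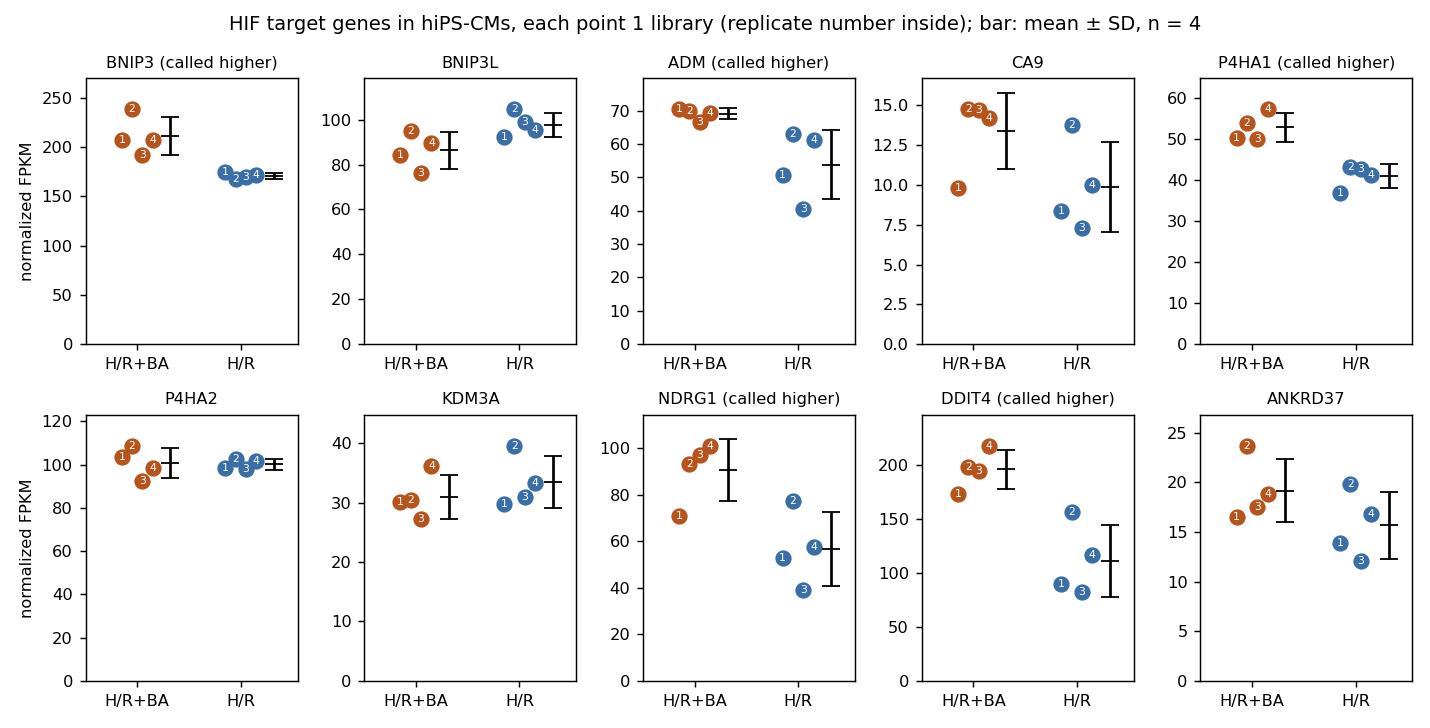
Normalized FPKM of the 10 HIF target genes (vertical axes, from 0) in the 4 H/R+BA libraries (left in each panel) and the 4 H/R libraries (right), with the replicate number in each point and the mean ± SD beside the points. DDIT4, P4HA1, BNIP3 and ADM do not overlap between the groups, and H/R replicate 2 is the highest H/R library in 9 of the 10 panels.

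**Figure D2:**
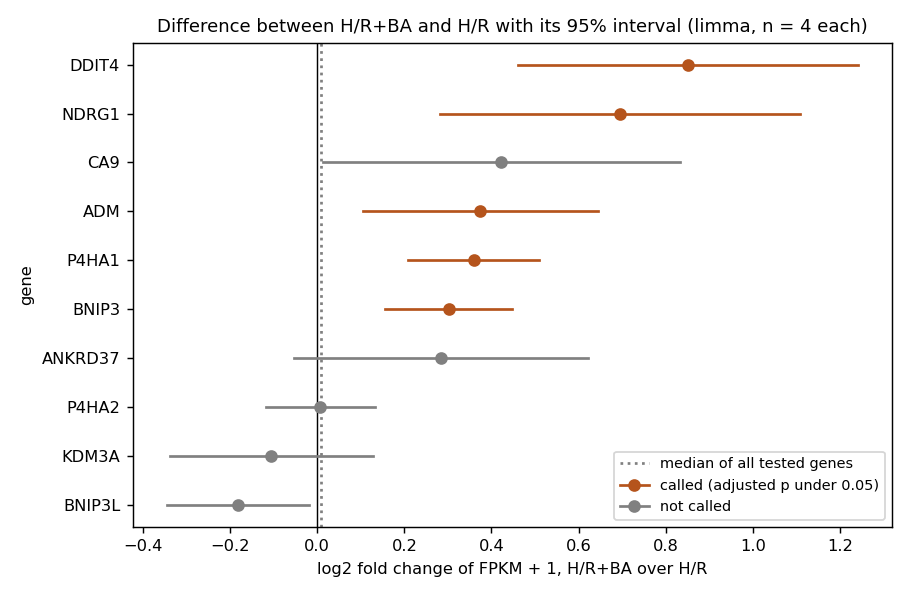
Log2 fold change of FPKM + 1 (H/R+BA over H/R, horizontal axis) for each gene with its 95% interval from limma, orange where called and grey where not. DDIT4 (0.85) and NDRG1 (0.70) lie farthest to the right, and the interval of BNIP3L lies below 0 although its adjusted p was 0.0986.

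DDIT4 (also REDD1) encodes an inhibitor of mTORC1, the kinase complex that drives protein synthesis and growth. Its FPKM was 173, 198, 195 and 218 in H/R+BA replicates 1 to 4, against 90.1, 156, 82.4 and 116 in H/R replicates 1 to 4. Every H/R+BA library was above the highest H/R library, replicate 2, which itself was well above the other H/R libraries. The means were 196 ± 18.1 in H/R+BA and 111 ± 33.3 in H/R (SD, n = 4 each), a 1.76-fold difference (log2 fold change 0.85, SE 0.17, adjusted p = 0.00758). DDIT4 had the largest log2 fold change of the 10 genes. Its paralog DDIT4L, which also restrains mTORC1, rose too, to 4.39 ± 0.984 FPKM in H/R+BA, against 1.93 ± 0.534 FPKM in H/R (log2 fold change 0.88, adjusted p = 0.00509). Of 14 tested genes of mTORC1 and its brakes other than DDIT4, 2 rose and 4 fell, beside 13.7% and 11.1% of all tested genes. Their median log2 fold change was −0.08. Without H/R+BA replicate 1, 2 fell. SESN2, a stress-induced inhibitor of mTORC1, was the other gene that rose (0.33, adjusted p = 0.0141). MTOR, the kinase itself, fell by 0.24 (adjusted p = 0.0104), and SESN3, a relative of SESN2, fell by 0.42 (adjusted p = 0.0156).

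Since DDIT4 is also a target of other pathways, a list of ATF4 stress response genes and one of glucocorticoid response genes were read beside it. Among all tested genes, 13.7% were called higher and 11.1% lower, the background for both lists. Of the 10 ATF4 genes tested, 4 rose and none fell (median log2 fold change 0.42). These were CHAC1, a glutathione-degrading enzyme (1.14, adjusted p = 5.76e-04), TRIB3, a pseudokinase (0.99, adjusted p = 0.00127), DDIT3, the transcription factor CHOP (0.89, adjusted p = 0.00449), and SESN2. Of the 10 tested glucocorticoid genes, 2 rose and none fell (median 0.19). With H/R replicate 3 left out 2 fell, and with any other library but H/R replicate 4 left out 1 rose. Those that rose were TSC22D3, the glucocorticoid-induced leucine zipper (0.41, adjusted p = 0.00115), and CEBPD, a transcription factor (0.27, adjusted p = 0.0253). FKBP5, a glucocorticoid target commonly used as a readout, was not called (8.78 ± 0.583 FPKM in H/R+BA and 7.55 ± 0.799 FPKM in H/R, adjusted p = 0.119). The part of these pathways in the DDIT4 difference was not tested.

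NDRG1 encodes a cytoplasmic protein induced by hypoxia, stress and differentiation. Its FPKM was 71.0, 93.0, 97.1 and 101.0 in the H/R+BA libraries and 52.9, 77.1, 39.0 and 57.6 in the H/R libraries. The groups overlapped, because H/R+BA replicate 1 was below H/R replicate 2. The means were 90.5 ± 13.4 FPKM in H/R+BA and 56.6 ± 15.8 FPKM in H/R (SD, n = 4 each), and the log2 fold change was 0.70 (SE 0.18, adjusted p = 0.0225). The family members NDRG2 (0.54, adjusted p = 0.00318) and NDRG4 (0.42, adjusted p = 0.0116), both known from heart and brain, rose as well.

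BNIP3 and BNIP3L (also NIX) encode receptors of the outer mitochondrial membrane that bind LC3 and GABARAP proteins and so deliver mitochondria to autophagosomes. BNIP3 had 207, 239, 192 and 207 FPKM in the H/R+BA libraries, against 174, 168, 170 and 171 FPKM in the H/R libraries. All H/R+BA libraries were above all H/R libraries, and the H/R libraries lay close together. The means were 211 ± 19.5 FPKM in H/R+BA and 171 ± 2.79 FPKM in H/R (SD, n = 4 each), with a log2 fold change of 0.30 (SE 0.06, adjusted p = 0.00924). The table lists 39 pseudogenes of BNIP3, none of which exceeded 1.12 FPKM in any library.

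BNIP3L had 84.4, 95.1, 76.0 and 89.8 FPKM in the H/R+BA libraries and 92.2, 105, 98.8 and 95.4 FPKM in the H/R libraries. The groups overlapped in 1 library of each, with H/R+BA replicate 2 above H/R replicate 1. The means were 86.3 ± 8.12 FPKM in H/R+BA and 97.8 ± 5.37 FPKM in H/R, and the log2 fold change of −0.18 (SE 0.07) was not called (adjusted p = 0.0986). On the deposited normalized counts, in place of FPKM, BNIP3L was called lower (log2 fold change −0.37, adjusted p = 0.00312). The gap between the scales lies in the normalized counts per FPKM of BNIP3L, which averaged 52.5 in H/R+BA libraries and 59.8 in H/R libraries, so that an FPKM stood for 0.879 times as many counts in H/R+BA. For DDIT4, ADM, P4HA1, P4HA2 and ANKRD37 this ratio was between 0.992 and 1.01, and it was 0.927 for KDM3A, 0.952 for BNIP3, 0.971 for CA9 and 1.06 for NDRG1. For BNIP3L the groups overlapped, with 56.4 counts per FPKM in H/R+BA replicate 3 and 56.2 in H/R replicate 4. A gene's counts per FPKM depend on the transcript length to which its fragments were assigned, and why it differed for BNIP3L was not tested.

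Among the proteins with which the receptors work, 5 of 15 tested rose and 4 fell, beside 13.7% and 11.1% of all tested genes. Their median log2 fold change was 0.09. Without H/R+BA replicate 1, 2 or 3 or H/R replicate 2, 3 rose, and without H/R+BA replicate 3, 2 fell. PHB2, an inner-membrane mitophagy receptor (0.21, adjusted p = 0.00829), and BCL2L13, an outer-membrane receptor (0.22, adjusted p = 0.0129), rose. PINK1, the kinase that starts the alternative Parkin pathway, fell by 0.35 (adjusted p = 0.0120), and GABARAPL1, a binding partner of both receptors on the autophagosome, fell by 0.24 (adjusted p = 0.0125).

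P4HA1 and P4HA2 encode catalytic α subunits of collagen prolyl 4-hydroxylase, which form tetramers with P4HB and hydroxylate proline in procollagen so that the triple helix is stable at body temperature. P4HA1 had 50.2, 53.9, 49.9 and 57.3 FPKM in the H/R+BA libraries, against 36.9, 43.1, 42.7 and 41.3 FPKM in the H/R libraries. The groups were separated by a gap larger than the range within H/R. The means were 52.8 ± 3.50 FPKM in H/R+BA and 41.0 ± 2.85 FPKM in H/R (SD, n = 4 each), with a log2 fold change of 0.36 (SE 0.07) and the smallest adjusted p of the 10 genes, 0.00497. P4HA2 had 103, 109, 92.6 and 98.5 FPKM in the H/R+BA libraries and 98.3, 103, 97.7 and 102 FPKM in the H/R libraries. Its log2 fold change was 0.01, with a 95% interval of −0.12 to 0.13 (adjusted p = 0.942). The α subunits therefore differed in their values in this comparison, P4HA1 being called and P4HA2 not, without a formal test of that difference. The β subunit P4HB, which also serves as protein disulfide isomerase, was not called (470 ± 27.7 FPKM in H/R+BA and 458 ± 21.6 FPKM in H/R, log2 fold change 0.04, adjusted p = 0.705). Beside 13.7% called higher and 11.1% lower over all tested genes, 2 of 11 genes listed under collagen hydroxylation and folding rose and none fell. The median of this list, which included P4HB and left out the α subunits P4HA1 and P4HA2, was 0.05. Without H/R+BA replicate 1, 1 rose. The 2 that rose were SERPINH1, the collagen chaperone HSP47 (0.40, adjusted p = 0.00283), and P4HTM, a transmembrane prolyl hydroxylase of the endoplasmic reticulum (0.34, adjusted p = 0.0186). P4HTM was counted in this list, although procollagen is not its known substrate. Fibroblast markers summed to 683 to 892 FPKM in H/R+BA libraries and 481 to 763 FPKM in H/R libraries, with 2 of 7 tested called higher, and their part in the P4HA1 result was not tested. PDLIM4, which overlaps P4HA2 on the opposite strand, averaged 46.8 FPKM in H/R+BA and 47.6 FPKM in H/R. The libraries were stranded, but no source used here states the strand setting of the counting.

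ADM encodes adrenomedullin, a secreted vasodilator peptide made by cardiomyocytes and vascular cells. Its FPKM was 70.5, 69.9, 66.7 and 69.3 in the H/R+BA libraries, against 50.9, 62.9, 40.5 and 61.1 in the H/R libraries. Every H/R+BA library was above every H/R library, and the spread was far wider in H/R than in H/R+BA. The means were 69.1 ± 1.69 FPKM in H/R+BA and 53.9 ± 10.4 FPKM in H/R (SD, n = 4 each), a coefficient of variation of 2.45% in H/R+BA and 19.3% in H/R. The log2 fold change was 0.37 (SE 0.12) and the adjusted p of 0.0476 was close to the threshold. Without H/R replicate 3, the lowest library, the log2 fold change was 0.25 (adjusted p = 0.0440).

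The adrenomedullin receptor consists of CALCRL with RAMP2 or RAMP3. RAMP2 was higher in H/R+BA (7.18 ± 0.880 FPKM, against 3.95 ± 0.463 FPKM in H/R, log2 fold change 0.72, adjusted p = 0.00143), and so was CALCRL (3.13 ± 0.590 FPKM, against 1.79 ± 0.335 FPKM in H/R, 0.57, adjusted p = 0.0121). The related peptide gene ADM2 rose likewise (2.59 ± 0.306 FPKM in H/R+BA and 1.34 ± 0.451 FPKM in H/R, 0.64, adjusted p = 0.0105). The H/R level of ADM2 was near the 1 FPKM required for testing. PAM, the enzyme that amidates the ADM peptide, was not called (278 ± 21.3 FPKM in H/R+BA and 324 ± 59.0 FPKM in H/R, adjusted p = 0.240). In all, 3 of the 7 tested genes of this family rose and none fell, beside 13.7% and 11.1% of all tested genes. The median of the family was 0.18. CALCRL and RAMP2 are typical of endothelial cells, and 4 of 6 tested endothelial markers rose as well. The 8 endothelial markers summed to 119 to 142 FPKM in H/R+BA libraries and 82.1 to 100.3 FPKM in H/R libraries, and their part in the ADM and receptor results was not tested.

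CA9 encodes carbonic anhydrase IX, a cell-surface enzyme that acidifies the outside of hypoxic cells. Its FPKM was 9.80, 14.8, 14.7 and 14.2 in the H/R+BA libraries and 8.36, 13.7, 7.30 and 10.0 in the H/R libraries. H/R+BA replicate 1 lay within the H/R range, and H/R replicates 2 and 4 within the H/R+BA range. The means were 13.4 ± 2.39 FPKM in H/R+BA and 9.85 ± 2.83 FPKM in H/R (SD, n = 4 each), and the log2 fold change of 0.42 (SE 0.18, 95% interval 0.01 to 0.83) was not called (adjusted p = 0.120). Without H/R replicate 2 it was 0.58 and called (adjusted p = 0.0226). The other membrane-bound carbonic anhydrase among HIF targets, CA12, rose to 3.05 ± 0.223 FPKM in H/R+BA, against 1.15 ± 0.249 FPKM in H/R (log2 fold change 0.92, adjusted p = 5.77e-04). The H/R level of CA12 was near the filter of 1 FPKM.

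ANKRD37, a small ankyrin-repeat protein, and KDM3A, a demethylase of lysine 9 of histone H3 that opens chromatin, were not called. ANKRD37 had 16.6, 23.7, 17.5 and 18.8 FPKM in the H/R+BA libraries and 13.9, 19.8, 12.1 and 16.8 FPKM in the H/R libraries, with overlapping groups (log2 fold change 0.28, 95% interval −0.05 to 0.62, adjusted p = 0.196). UFSP2, which overlaps ANKRD37 on the opposite strand, averaged 17.1 FPKM in H/R+BA and 15.4 FPKM in H/R, close to the level of ANKRD37. KDM3A had 30.1, 30.4, 27.2 and 36.1 FPKM in the H/R+BA libraries and 29.8, 39.6, 31.0 and 33.4 FPKM in the H/R libraries, also with overlapping groups (log2 fold change −0.11, 95% interval −0.34 to 0.13, adjusted p = 0.491). On the deposited normalized counts KDM3A was called lower (log2 fold change −0.22, adjusted p = 0.0497). Its paralog KDM3B fell by 0.19 (adjusted p = 0.0267). KDM3B missed the threshold when any 1 of the H/R+BA libraries, or H/R replicate 1 or 2, was left out.

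By level, BNIP3 came first and DDIT4 second in both groups, and KDM3A, ANKRD37 and CA9 took the last places in both. In H/R+BA the ranges of BNIP3 (192 to 239 FPKM) and DDIT4 (173 to 218 FPKM) overlapped, and in H/R that of BNIP3 (168 to 174 FPKM) was above all DDIT4 values (82.4 to 156 FPKM). P4HA2, NDRG1 and BNIP3L followed in H/R+BA, with ranges that overlapped from each to the next, then ADM, P4HA1, KDM3A, ANKRD37 and CA9, each below the lowest library of the gene before it. In H/R, BNIP3L stood ahead of NDRG1, and ADM, P4HA1 and KDM3A each overlapped the gene before them.

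Each gene was also set against a paralog within each library, which removes any factor common to a library. The 7 pairs were chosen after the values had been seen, so their ratios are given as a description without a test. BNIP3 was 2.45, 2.51, 2.53 and 2.31 times BNIP3L in the H/R+BA libraries and 1.89, 1.60, 1.72 and 1.80 times BNIP3L in the H/R libraries. P4HA1 was 0.526 ± 0.0443 times P4HA2 in H/R+BA and 0.409 ± 0.0259 times P4HA2 in H/R (SD, n = 4 each). In both pairs all H/R+BA ratios were above all H/R ratios. The order was the opposite for CA9 over CA12 (4.39 ± 0.857 in H/R+BA and 8.64 ± 1.85 in H/R) and for ADM over ADM2 (29.8, 30.6, 23.3 and 24.3 in the H/R+BA libraries and 47.3, 33.9, 46.9 and 39.2 in the H/R libraries), where the paralog with the lower level had the larger fold change. In H/R, both of these paralogs, CA12 (1.15 FPKM) and ADM2 (1.34 FPKM), were near the filter of 1 FPKM. The ratios of NDRG1 to NDRG2, KDM3A to KDM3B and DDIT4 to DDIT4L overlapped between the groups.

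**Figure D3:**
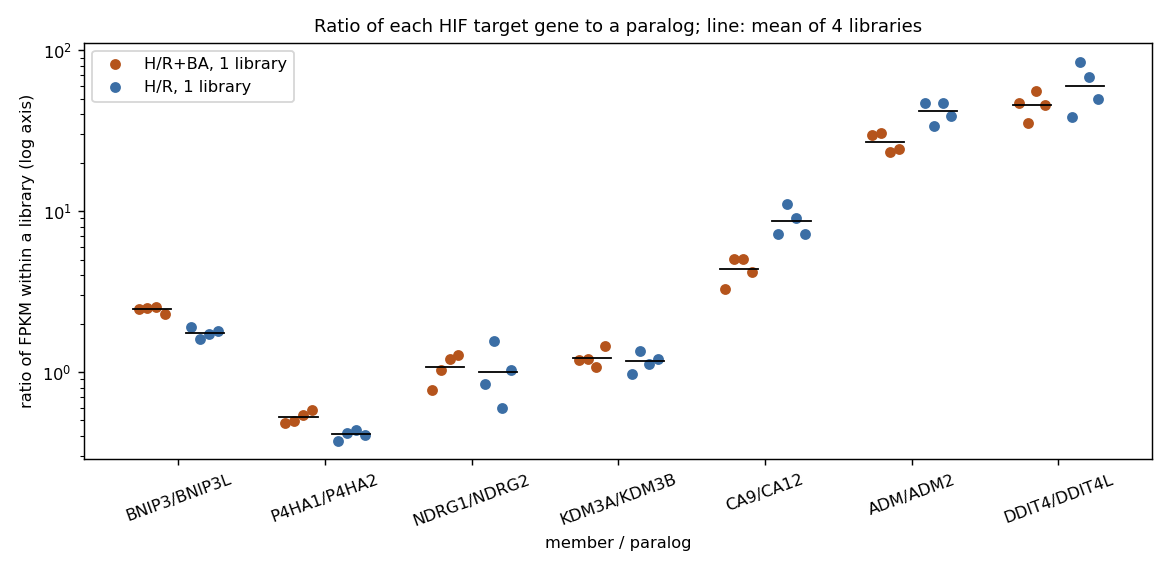
Ratio of the FPKM of each gene to that of a paralog within the same library (vertical log axis), with 1 point per library, H/R+BA in orange left of H/R in blue, and a line at the mean of 4 libraries. BNIP3/BNIP3L and P4HA1/P4HA2 are higher in every H/R+BA library, and CA9/CA12 and ADM/ADM2 are lower.

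The genes differed in how widely the libraries of a group were spread. In H/R, the SD of DDIT4 on the log2 scale was larger than that of 95.3% of all tested genes, followed by NDRG1 (94.9%), CA9 (93.1%), ANKRD37 (88.0%) and ADM (87.6%). BNIP3 and P4HA2 were at the other end, with an SD larger than that of only 0.830% and 2.38% of the tested genes. In CA9, ADM, NDRG1, ANKRD37, DDIT4 and P4HA2, the H/R libraries stood in the same order from low to high, replicates 3, 1, 4 and 2, an order shared by 10.3% of all tested genes. H/R replicate 2 was the highest H/R library in 9 of the 10 genes (26% of all tested genes), BNIP3 being the exception.

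**Figure D4:**
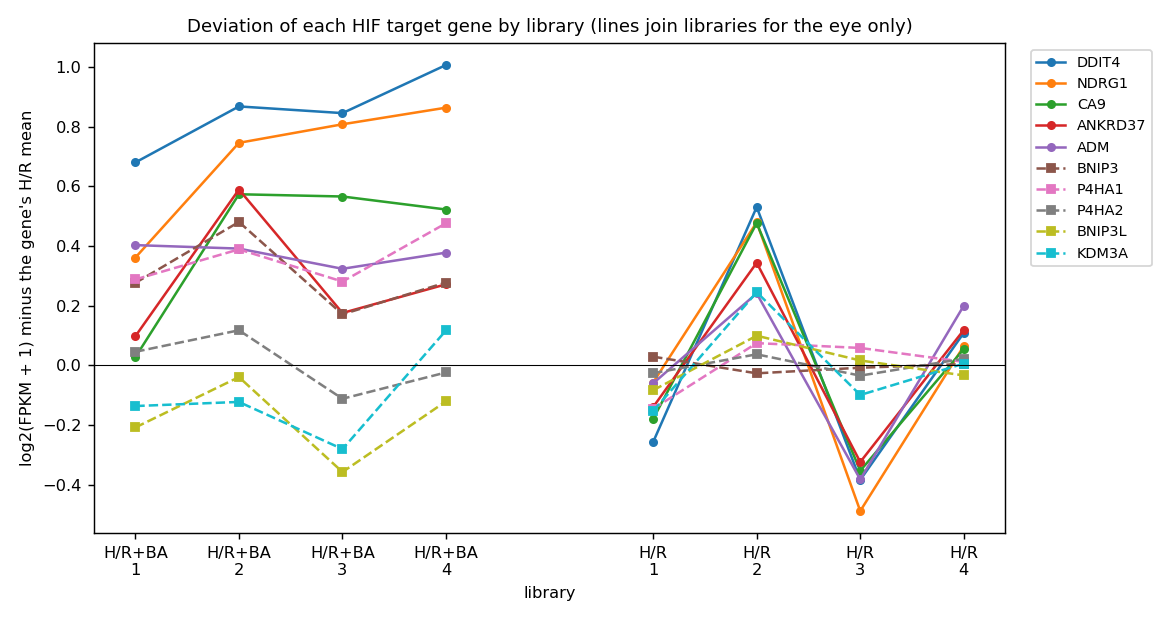
Log2(FPKM + 1) of each gene minus its mean over the H/R libraries (vertical axis) in each library, H/R+BA on the left and H/R on the right, with solid lines for the 5 genes of wide spread in H/R and dashed lines for the others. DDIT4, NDRG1, CA9, ANKRD37 and ADM are high together in H/R replicate 2 and low together in H/R replicate 3, where BNIP3 and P4HA2 stay near 0.

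Some other measures of the H/R libraries stood in the same order, and others did not. Glucocorticoid genes summed to 521, 651, 461 and 655 FPKM in H/R replicates 1 to 4. Endothelial markers summed to 93.4, 100.3, 82.1 and 92.7 FPKM, and cardiomyocyte markers to 21571, 13882, 21002 and 15999 FPKM. H/R replicate 3 also had the fewest reads of any library, 39854257. Measures in the same or the reverse order follow. AFP, an endoderm and hepatic marker, had 372, 442, 706 and 616 FPKM in H/R+BA replicates 1 to 4 and 384, 968, 317 and 674 FPKM in H/R replicates 1 to 4. The 5 endoderm and hepatic markers summed to 504 to 898 FPKM in H/R+BA libraries and 400 to 1160 FPKM in H/R libraries, and none of the 5 was called. The summed FPKM of the 10 ATF4 genes was 507, 495, 527 and 508 in the H/R+BA libraries and 370, 481, 290 and 467 in the H/R libraries, again with H/R replicate 3 lowest and replicate 2 highest. The share of FPKM from mitochondrially encoded genes was 15.6%, 15%, 16.5% and 13.9% in the H/R+BA libraries and 18.1%, 14.9%, 22% and 17.2% in the H/R libraries, which is the reverse order in H/R. The part of these measures in the results for the HIF target genes was not tested. H/R replicate 2, the H/R library nearest to the H/R+BA libraries in DDIT4, NDRG1, CA9 and ADM, was also the library with the lowest cardiomyocyte marker sum, 13882 FPKM.

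Among 42 other HIF targets outside glycolysis, 41 were tested, of which 17 rose and none fell, with a median log2 fold change of 0.18. Among all tested genes, 13.7% were called higher and 11.1% lower, with a median of 0.01. These shares are the background for this list and for the glycolytic list below. STC2, a secreted glycoprotein, was 177 ± 8.17 FPKM in H/R+BA and 93.6 ± 9.81 FPKM in H/R (0.92, adjusted p = 1.99e-04). FAM162A, a mitochondrial protein, was 275 ± 24.4 FPKM in H/R+BA and 188 ± 6.66 FPKM in H/R (0.54, adjusted p = 8.45e-04). HILPDA, an inhibitor of lipolysis on lipid droplets, was 82.4 ± 9.09 FPKM in H/R+BA and 37.8 ± 8.08 FPKM in H/R (1.12, adjusted p = 9.01e-04). VEGFA, the angiogenic factor, named after its values had been seen, was 161 ± 9.49 FPKM in H/R+BA and 120 ± 14.3 FPKM in H/R (0.43, adjusted p = 0.00620). HMOX1, the gene of HO-1, named likewise, was 34.6 ± 3.03 FPKM in H/R+BA and 12.7 ± 4.63 FPKM in H/R (1.44, adjusted p = 0.00160). EGLN1 (−0.13, adjusted p = 0.114) and RORA (−0.26, adjusted p = 0.0997) were not called. In both, every H/R+BA library was below every H/R library, a separation found in 13.3% of all tested genes. Among 21 HIF targets of glycolysis and of glucose or lactate transport, 9 rose and none fell (median 0.21), among them LDHA (0.37, adjusted p = 0.00443), HK2 (0.33, adjusted p = 0.00596), ENO1 (0.31, adjusted p = 0.00632) and SLC16A3 (0.30, adjusted p = 0.0110). None of the targets within and outside glycolysis was called lower on FPKM, and the same held for the collagen, adrenomedullin, glucocorticoid and ATF4 lists. The 10 genes described here were not tested against either list of HIF targets.

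The HIF subunits and their hydroxylases moved in both directions. Of 10 tested, 2 rose and 2 fell (median 0.11), beside 13.7% higher and 11.1% lower over all tested genes. Without H/R replicate 1, 4 rose and 1 fell, and 1 also fell without any 1 of the H/R+BA libraries or without H/R replicate 4. EGLN3, a prolyl hydroxylase and itself a HIF target, was 146 ± 13 FPKM in H/R+BA and 99.2 ± 5.45 FPKM in H/R (0.55, adjusted p = 9.32e-04), and HIF3A, a regulatory α subunit, also rose (0.96, adjusted p = 0.00580). HIF1AN, the asparaginyl hydroxylase FIH, fell by 0.23 (adjusted p = 0.0288), and ARNT2, a partner subunit, fell by 0.38 (adjusted p = 0.0129) at about 1 FPKM. HIF1A, whose product is controlled mainly at the protein level, was not called (115 ± 14.1 FPKM in H/R+BA and 119 ± 19.8 FPKM in H/R, adjusted p = 0.816), and HIF protein was not measured in these files.

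**Figure D5:**
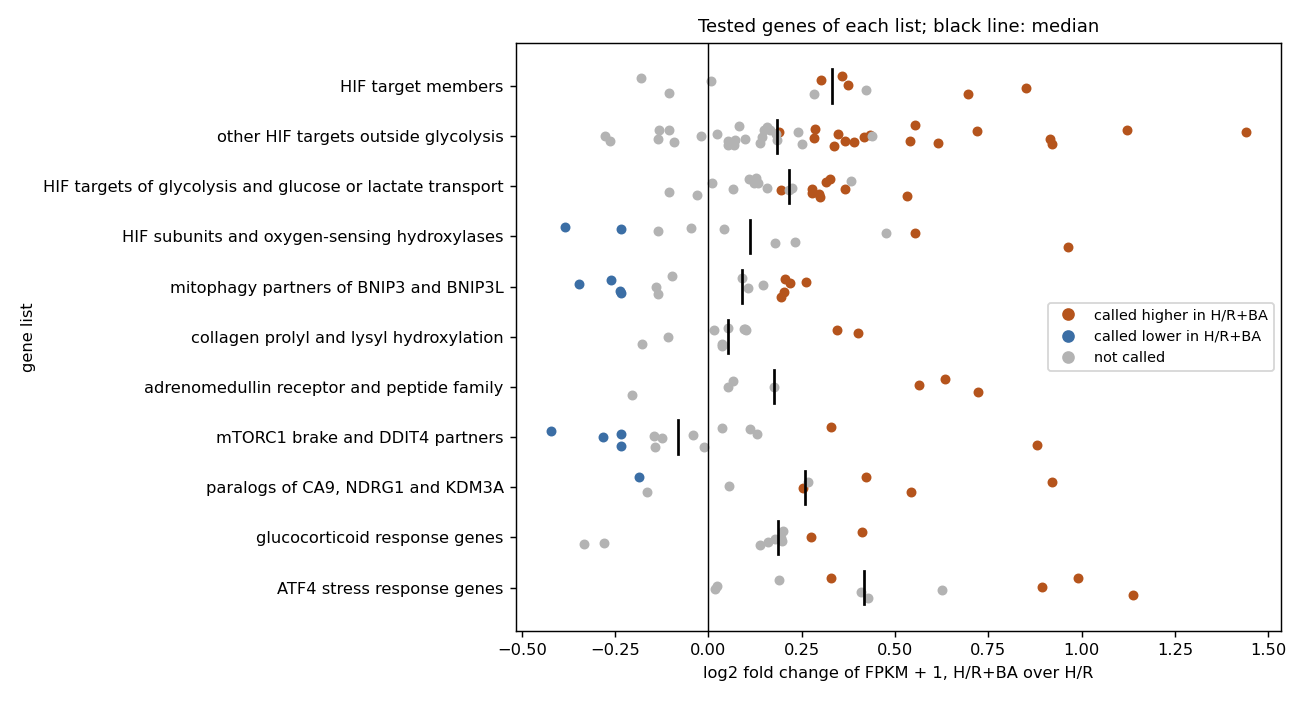
Log2 fold change of FPKM + 1 (H/R+BA over H/R, horizontal axis) of every tested gene in the 10 genes described here (top row) and in 10 other lists, orange where called higher, blue where called lower and grey where not called, with a black line at each median. The top 3 rows hold no blue point, and neither do the collagen, adrenomedullin, glucocorticoid and ATF4 rows. The mitophagy and mTORC1 rows hold 4 blue points each.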

How the data were processed

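Libraries were prepared with a stranded mRNA kit. According to the paper and the submitters' processing notes, the authors trimmed reads with Trimmomatic 0.39, aligned the trimmed reads by HISAT2 2.1.0 (GRCh38.p5), and used featureCounts 2.0.6 and Cuffdiff 2.2.1. No source used here names the gene annotation. Per library, the deposited table of genes has a normalized FPKM and a normalized count, and the count is a signal obtained by the authors with a size factor for each library. Read counts per library and the percent of reads mapped were taken from the deposited summary of the run. The authors' fold changes, p-values and 4 columns of group means were not used, nor were 9 libraries of the summary that belong to other samples.

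The normalized counts were not whole numbers, so FPKM were compared on log2(FPKM + 1), with a pseudocount of 1, using limma 3.58.1 (R 4.3.3) with moderated variances and a variance trend. Tests were two-sided, with Benjamini-Hochberg adjustment across tested genes and a threshold of 0.05. A gene was tested if 4 or more libraries had 1 FPKM or above. The log scale understates changes of low genes. All 8 libraries entered the fit, grouped by their titles, without covariates. Without whole counts, intervals rest on the spread between libraries alone.

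The members and the gene lists were chosen with earlier results of these data known. Named were all members, up to 4 called genes of each other list with the smallest adjusted p, and uncalled genes of a list or paralogs of a member. Some genes beyond this were named after their values were seen (VEGFA, HMOX1, AFP). Alternatives were another pseudocount, other filters, 2 rescalings of FPKM, the normalized counts, no variance trend, a replicate block and leaving out each library. Promoters came from RefSeq (GRCh38.p14), and gene overlaps from GENCODE 44.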

Additional observations from a re-analysis of the deposited data

Results flagged for a closer look

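In 100 groups of 4 libraries looked at (the 10 HIF target genes, the called genes named by rule from the lists and the 7 paralog ratios, in each condition), 2 held a library far from the others, where chance alone gives about 1 in 20. CA9 had 9.80 FPKM in H/R+BA replicate 1, against 14.2 to 14.8 FPKM in the other H/R+BA libraries. The glycolytic gene HK2 had 30.2 FPKM in H/R replicate 2, against 25.8 to 26.4 FPKM in the other H/R libraries.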

How the results depend on the processing

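Of the 10 HIF target genes, 5 were called higher in the main analysis and 3 without a filter on low values, where NDRG1 (adjusted p = 0.0784) and ADM (adjusted p = 0.130) were lost. Leaving out 1 library gave 3 to 6 genes called higher and 0 called lower. On the deposited normalized counts 5 were called higher and 2 lower (BNIP3L and KDM3A), and over all genes 2350 were called higher and 2595 lower, against 1958 and 1588 on FPKM. Rescaling to equal totals without mitochondrial genes gave 1707 higher and 1954 lower. On the normalized counts, 7 of the ATF4 genes were called higher, and 1 other HIF target outside glycolysis and 1 glucocorticoid gene were called lower. The genes of mTORC1 and its brakes called lower numbered 6 on these counts and after the rescaling to equal totals. ADM also missed the threshold after rescaling by median ratios (adjusted p = 0.0523), after rescaling to equal totals without mitochondrial genes (0.0735) and without the variance trend (0.0622). With 1 library left out, the adjusted p of ADM ranged over 0.0211 to 0.103, that of NDRG1 over 0.00495 to 0.0607 and that of CA9 over 0.0226 to 0.250. P4HA2, close to 0 throughout, changed sign after both rescalings (log2 fold change −0.0055 and −0.0287) and in 4 of the fits without 1 library, which ranged over −0.0297 to 0.0468. The causes were not tested.

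The labels do not pair the libraries by replicate number, and the correlations below cannot settle whether same-numbered libraries shared a culture. Deviations of same-numbered libraries from their group means had correlations of 0.24, −0.24, −0.25 and −0.01 for numbers 1 to 4. Only H/R replicate 1 correlated best with the H/R+BA library of its own number. With the replicate number as a block, 6 of the HIF target genes were called higher, ANKRD37 being the added gene (adjusted p = 0.0487), and 1460 genes were called higher and 1071 lower overall. No gene lost its call under the block among the 10. Of the mitophagy partners, 2 were called higher and 2 lower under the block, of the HIF subunits and hydroxylases 1 was called lower, of the glucocorticoid genes 1 was called higher, and KDM3B was not called.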
